A study of Mus musculus with 15 samples.

Results

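Described here are 35 genes of glycolysis and of the response to low oxygen, chosen by name: 2 glucose transporters, 18 genes of the glycolytic enzymes, 6 genes of pyruvate and lactate handling, 3 of oxygen sensing and 6 targets of hypoxia-inducible factor. All 35 names were found among the 23154 genes of every file. The study picked single heart cells from mouse embryos carrying Nkx2-5Cre::Rosa26tdTomato or Isl1Cre::Rosa26tdTomato in 15 libraries. The stages were E7.75, then E8.25, then E8.75, and last E9.25, with 2 libraries for each Cre line and stage and 1 for Isl1Cre at E9.25. Both lines share the Rosa26tdTomato reporter, which Cre switches on in cells that express Nkx2-5 or Isl1 and which their descendants keep. Cells were picked by mouth pipette after sorting or after trypsin alone, and the labels do not say which was used for which library. Both libraries of a group carry 1 embryo number, so p-values measure the spread between libraries, and a stage or lineage cannot be told apart from an embryo.

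Glycolysis splits glucose into pyruvate in the cytosol, and lactate dehydrogenase turns pyruvate into lactate when mitochondria do not take it up. When oxygen is scarce, prolyl hydroxylases stop marking hypoxia-inducible factor for destruction, and it raises transcription of glucose transporters, of most glycolytic enzymes and of genes that limit mitochondrial work. Several steps have isozymes encoded by separate genes, and striated muscle uses the phosphoglycerate mutase Pgam2 and the enolase Eno3. The early embryonic heart forms under low oxygen and relies largely on glycolysis before it turns to mitochondrial fuel use.

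Levels are CPM, a gene's share of the counts in a cell scaled by the authors, averaged over the kept cells in each library. Gene positions are those of GENCODE vM21 on mm10. There were 1332 kept cells of 1400, 61 to 94 a library, and the total count per library was 8165519 to 38321215. Fragments came from the 3′ ends of transcripts and values are not divided by transcript length. Changes are differences of log2(mean CPM + 1) with their standard error (SE), tested with limma across the 10665 genes that reached 5 CPM in 2 libraries, at a Benjamini-Hochberg adjusted p of 0.05. Of the 35 members, 33 were tested. The others were Eno1, at 0.00 to 0.77 CPM, and Eno2, the neuronal enolase, at 0.39 to 5.79 CPM. Markers of cell types moved with stage and differed between lineages. The summed level of 12 cardiomyocyte markers was 6732.6 to 15651.0 CPM at E7.75 and 24794.8 to 55265.2 CPM later, with none at 0, and was lower in each Isl1Cre than in each Nkx2-5Cre library at E7.75, E8.25 and E8.75 (at E8.75, 43219.6 and 44819.0 against 48658.4 and 49465.4 CPM) and higher at E9.25 (55265.2 against 44125.1 and 39255.6 CPM). The 7 erythroid markers summed to 1409.1 and 1175.6 CPM in Nkx2-5Cre E8.75 and to at most 219.2 CPM elsewhere. At E8.25, 10 endoderm markers summed to 670.5 and 515.4 CPM in Isl1Cre against 54.7 and 55.5 CPM in Nkx2-5Cre. There, 6 surface ectoderm markers summed to 2713.8 and 2770.2 against 987.6 and 804.4 CPM. Other marker lists are not given here. The part of these cells in the results below was not tested.

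Most members rose as the heart formed. Per day of development, 19 of the 33 tested members rose and 2 fell in Nkx2-5Cre, and 20 rose and 3 fell in Isl1Cre. Among all genes tested, 13.2% rose and 11.6% fell in Nkx2-5Cre, and 13% rose and 10.2% fell in Isl1Cre. The median member slope was 0.37 log2 units per day in Nkx2-5Cre and 0.59 in Isl1Cre. The 17 that rose in both lineages were Slc2a1, Hk1, Hk2, Gpi1, Pfkp, Aldoa, Aldoc, Tpi1, Pgk1, Pgam2, Eno3, Ldha, Ldhb, Pdk1, Slc16a3, Bnip3 and Bnip3l. Slc2a3 alone fell in both, and 7 members passed the threshold in neither slope.

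The first step was the largest in both lineages. From E7.75 to E8.25, 28 of the 33 had a higher group mean in each lineage, with a median step of 0.48 in Nkx2-5Cre and 0.68 in Isl1Cre on the log2 scale. From E8.25 to E8.75 the median step was 0.10 in Nkx2-5Cre and 0.25 in Isl1Cre, and from E8.75 to E9.25 it was 0.04 and 0.01. Without the E7.75 libraries, 1 member rose in Nkx2-5Cre (Ldhb) and 5 rose and 1 fell in Isl1Cre (Eno3, Hk1, Ldha, Ldhb and Pfkp, against Slc2a3). Calls over all genes fell too in that fit, to 0.663% in Nkx2-5Cre and 7.88% in Isl1Cre. In another fit the libraries of a group were averaged to 1 unit, with a straight line per lineage. No member then passed the threshold in Nkx2-5Cre (10 rose and 2 fell at an unadjusted p under 0.05, with limma), and 5 rose and 1 fell in Isl1Cre. Of all genes, 0.0795% and 5.33% were then called.

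**Figure D1:**
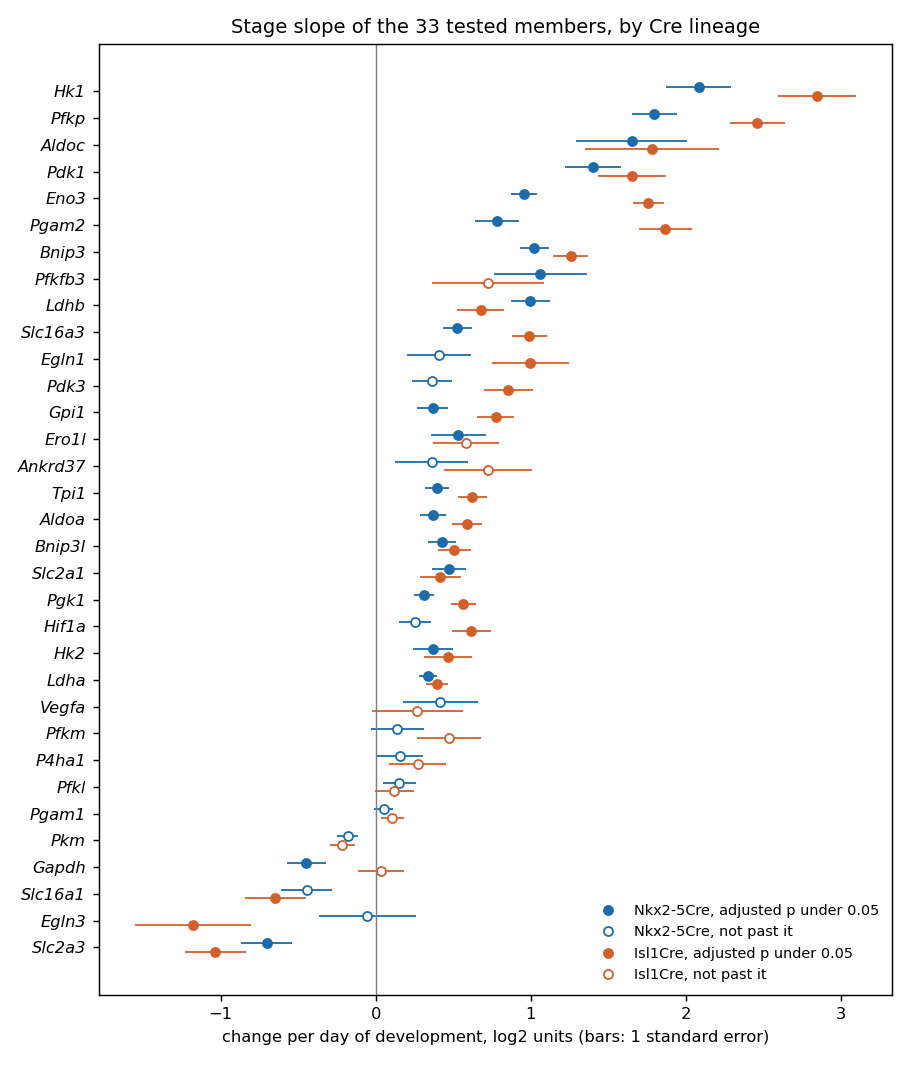
Change per day (horizontal axis, log2 units, bars 1 SE) of the 33 tested members in Nkx2-5Cre (blue) and Isl1Cre (orange), with filled points past an adjusted p of 0.05. Hk1 and Pfkp stand at the top in both lineages, and Slc2a3 lies below 0 in both.

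The genes of glucose entry moved in opposite directions. Slc2a1 encodes GLUT1, the widespread glucose transporter. It rose by 0.47 ± 0.11 per day in Nkx2-5Cre (adjusted p = 0.00408) and by 0.41 ± 0.13 in Isl1Cre (adjusted p = 0.0285), within a range of 248.1 to 577.5 CPM over libraries. Slc2a3 (chr6:122727809-122801640), which encodes the high-affinity transporter GLUT3, was at 395.6 and 182.8 CPM in Nkx2-5Cre E7.75, then 118.8 and 132.2, 116.1 and 102.0, and 130.5 and 118.1 at the later stages. In Isl1Cre it was at 310.0 and 216.8, 221.1 and 241.6, 105.7 and 160.5, and 91.2 CPM. Both lineages began with the 2 libraries of E7.75 well apart, and Isl1Cre held the E7.75 range until E8.25, when Nkx2-5Cre had already dropped below it. The slope was -0.70 ± 0.16 in Nkx2-5Cre (adjusted p = 0.00402) and -1.04 ± 0.20 in Isl1Cre (adjusted p = 0.000716). Slc2a3 held 36.8% to 51.3% of the summed CPM of the 2 transporters at E7.75 and 17.0% to 19.1% at E9.25.

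Hk1 and Pfkp, of the upper steps of glycolysis, had the steepest slopes of the tested members in both lineages. Hk1 (chr10:62268855-62379908) encodes hexokinase 1, which traps glucose in the cell and binds mitochondria. It was at 7.76 and 19.8 CPM in Nkx2-5Cre E7.75, then 101.0 and 91.3, 140.1 and 75.0, and 155.6 and 135.9. In Isl1Cre it was at 7.86 and 6.42, 33.6 and 27.2, 101.9 and 102.9, and 139.7 CPM. Every E8.25 library lay above every E7.75 library, and Isl1Cre at E8.25 lay below all later and all Nkx2-5Cre libraries from that stage on. The slope was 2.08 ± 0.21 in Nkx2-5Cre (adjusted p = 1.31e-06) and 2.85 ± 0.25 in Isl1Cre (adjusted p = 1.33e-07). Hk2, the other hexokinase, rose less, by 0.37 ± 0.13 and 0.46 ± 0.15 (adjusted p = 0.0419 and 0.0362). The Isl1Cre Hk2 slope was -0.52 without E7.75. Hk1 thus made up 6.12% to 12.0% of hexokinase CPM at E7.75 and 36.2% to 51.4% at E9.25.

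Phosphofructokinase, which commits sugar to glycolysis, shifted in the same way. Pfkp (chr13:6579768-6648777), its platelet-type subunit, was at 19.9 and 20.7 CPM in Nkx2-5Cre E7.75, then 129.5 and 114.4, 154.7 and 111.8, and 170.8 and 157.2. In Isl1Cre it was at 16.1 and 10.05, 61.4 and 72.4, 119.8 and 157.6, and 178.5 CPM. The Nkx2-5Cre libraries reached their later range at E8.25, while those of Isl1Cre were still between their E7.75 and E8.75 values. Its slope was 1.795 ± 0.15 (adjusted p = 8.8e-08) and 2.46 ± 0.17 (adjusted p = 6.38e-09). Pfkl and Pfkm, the liver-type and muscle-type subunits, passed the threshold in neither slope, with values of 159.6 to 247.7 CPM and 23.3 to 52.0 CPM. Pfkp therefore went from 4.59% to 9.68% of the summed phosphofructokinase CPM at E7.75 to 37.7% to 43.8% at E9.25. Pfkfb3, whose product makes an activator of phosphofructokinase, rose in Nkx2-5Cre (1.06 ± 0.30, adjusted p = 0.0149) but stayed within 1.64 to 10.6 CPM.

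The abundant enzymes of the middle steps rose by smaller amounts. Gpi1 (glucose-6-phosphate isomerase, chr7:34201330-34230336) was at 362.6 and 388.6 CPM in Nkx2-5Cre E7.75, then 691.1 and 570.2, 612.8 and 650.7, and 673.6 and 484.3, against 254.9 and 233.8, 444.7 and 446.3, 539.5 and 637.6, and 528.3 CPM in Isl1Cre. Aldoa (aldolase A, chr7:126795234-126800751, with a second annotated gene of that symbol beside it) was at 1193.4 and 1301.5, 2252.7 and 1743.3, 2074.1 and 1783.1, and 2058.0 and 1795.0 CPM in Nkx2-5Cre, against 874.0 and 889.7, 1748.5 and 1562.0, 1646.4 and 1898.1, and 1646.5 CPM in Isl1Cre. Both genes had their lowest 4 libraries at E7.75, with both Isl1Cre libraries below both Nkx2-5Cre libraries. Tpi1 (triosephosphate isomerase, chr6:124810586-124814296) was at 1076.5 and 1026.2, 1561.6 and 1284.0, 1492.8 and 1516.3, and 1692.7 and 1549.7 CPM in Nkx2-5Cre, against 618.2 and 779.3, 1329.3 and 1415.4, 1510.8 and 1529.2, and 1335.2 CPM in Isl1Cre. It too was lowest in the E7.75 libraries. Slopes in Nkx2-5Cre and Isl1Cre were 0.37 ± 0.10 and 0.77 ± 0.12 for Gpi1 (adjusted p = 0.0107 and 8.18e-05), 0.37 ± 0.08 and 0.59 ± 0.10 for Aldoa (adjusted p = 0.00314 and 0.000232), and 0.39 ± 0.08 and 0.62 ± 0.09 for Tpi1 (adjusted p = 0.00104 and 5.71e-05). Without E7.75, the Nkx2-5Cre slopes of Gpi1 and Aldoa were -0.14 and -0.05. Aldoc, the brain-type aldolase, rose in both lineages from 0.00 to 1.32 CPM at E7.75 to 9.98 to 13.1 CPM at E9.25.

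**Figure D2:**
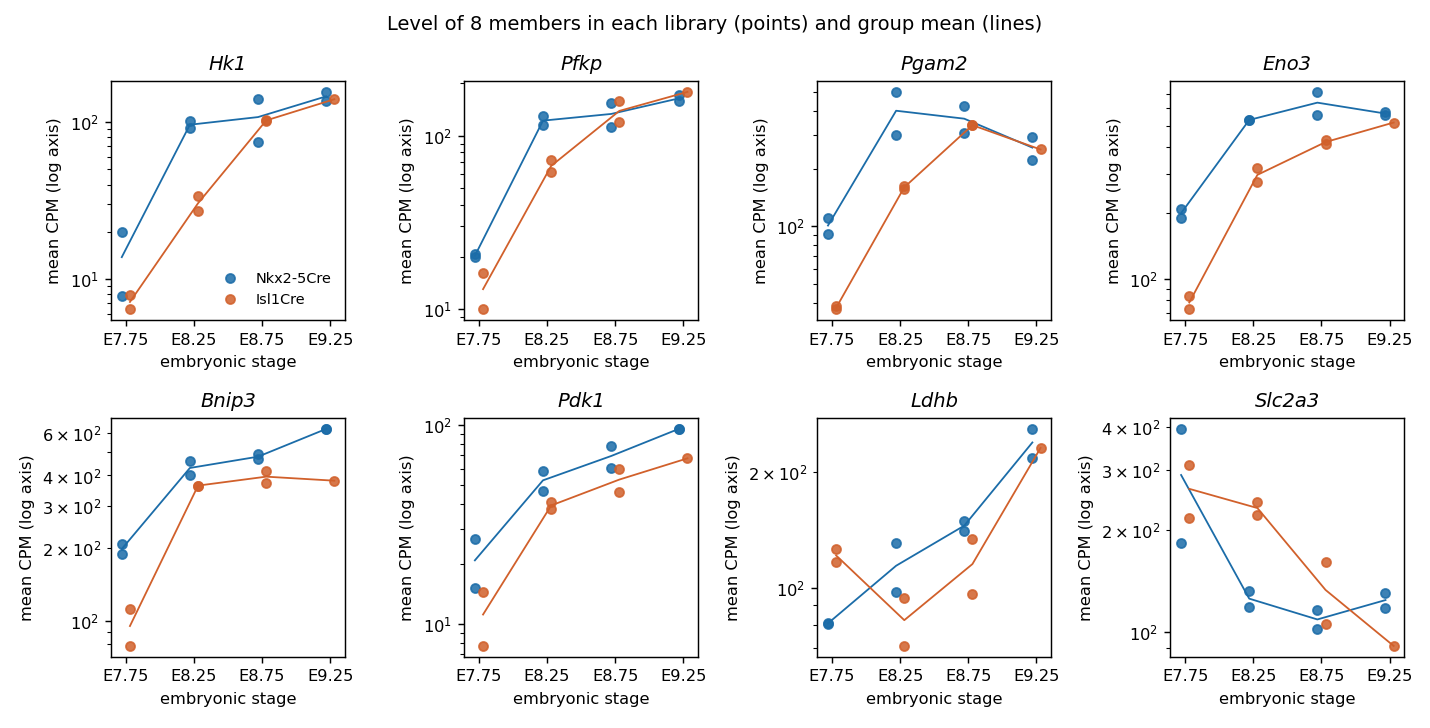
Mean CPM (vertical log axis) in each library (points) and group means (lines) against stage for Hk1, Pfkp, Pgam2, Eno3, Bnip3, Pdk1, Ldhb and Slc2a3. Hk1, Pfkp and Pgam2 were within or above their later Nkx2-5Cre range by E8.25, while in Isl1Cre they were still below theirs.

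In the lower steps of the pathway the muscle isozymes moved most. Pgam2 (chr11:5801640-5803733), the muscle phosphoglycerate mutase, was at 91.1 and 111.0 CPM in Nkx2-5Cre E7.75, then 502.5 and 299.1, 306.2 and 422.5, and 293.2 and 221.8. In Isl1Cre it was at 37.0 and 38.3, 157.5 and 162.4, 336.0 and 338.2, and 251.7 CPM. Isl1Cre lay below Nkx2-5Cre at E7.75 and E8.25 with no overlap, and the lineages overlapped at E8.75 and E9.25. The slope was 0.78 ± 0.14 in Nkx2-5Cre (adjusted p = 0.000516) and 1.87 ± 0.17 in Isl1Cre (adjusted p = 1.67e-07). From E8.25 on, the Nkx2-5Cre slope was -0.60 (adjusted p = 0.277). Pgam1 (chr19:41911923-41918660), the widespread form, was at 1438.1 and 1329.9, 1536.6 and 1420.5, 1447.3 and 1398.8, and 1548.1 and 1418.6 CPM in Nkx2-5Cre, against 1193.6 and 1281.9, 1390.8 and 1347.9, 1420.6 and 1404.9, and 1338.3 CPM in Isl1Cre, and passed no threshold.

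Eno3 (chr11:70657202-70662513), the muscle enolase, was at 209.1 and 190.5 CPM in Nkx2-5Cre E7.75, then 529.4 and 534.0, 713.7 and 561.4, and 577.6 and 559.3. In Isl1Cre it was at 72.9 and 83.5, 277.8 and 319.7, 413.5 and 429.5, and 517.5 CPM. At every stage each Isl1Cre library lay below each Nkx2-5Cre library. The slope was 0.96 ± 0.08 in Nkx2-5Cre (adjusted p = 2.6e-07) and 1.76 ± 0.10 in Isl1Cre (adjusted p = 2.95e-10). Pgk1 (chrX:106187100-106203699), phosphoglycerate kinase, was at 973.4 and 922.6, 1320.1 and 1239.2, 1407.7 and 1199.4, and 1430.1 and 1268.0 CPM in Nkx2-5Cre, against 655.4 and 721.7, 1230.6 and 1184.4, 1291.5 and 1228.5, and 1261.1 CPM in Isl1Cre. Its slopes were 0.31 ± 0.07 (adjusted p = 0.00233) and 0.56 ± 0.08 (adjusted p = 3.85e-05), with the E7.75 libraries lowest. Pkm, pyruvate kinase, stayed within 1995.2 to 2872.5 CPM and passed no threshold. Gapdh, often used as a reference gene, fell in Nkx2-5Cre (-0.45 ± 0.12, adjusted p = 0.0134) being at 2477.6 and 3103.7, 3537.6 and 2226.0, 1625.4 and 2055.6, and 2289.2 and 1584.1 CPM, and ranged from 1767.5 to 2259.7 CPM in Isl1Cre.

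Enolase 1 could not be read from these files. Eno1 (chr4:150236721-150248879) encodes the widespread enolase, yet its row held 17 counts in all, in 10 of 1332 cells. A separate row, Eno1b, a retrogene copy, was at 130.6 to 457.0 CPM. Of the 50-base windows of the Eno1 transcript Eno1-201, 56.3% also occur in an Eno1b transcript, and 75.8% of those in its last 500 bases do, against 0.0% for Eno3. Reads of these copies cannot be told apart over such windows, and the handling of such reads was not described in the labels. The ratio Eno1/Eno3 therefore follows Eno3.

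The isozyme ratios were tested by exact two-sided permutation of libraries (9 tests, Benjamini-Hochberg adjusted). Log2(Eno1/Eno3), with 1 CPM added to each, had a slope of -0.97 in Nkx2-5Cre (exact p = 0.00635, adjusted p = 0.0143) and of -1.64 in Isl1Cre (exact p = 0.00952, adjusted p = 0.0171), and was 0.84 higher in Isl1Cre over the stages (exact p = 0.00154, adjusted p = 0.0139). With Eno1b added to Eno1, a choice made after seeing the data, the Nkx2-5Cre slope was -0.34 (exact permutation, adjusted p = 0.4), the Isl1Cre slope -1.61 (adjusted p = 0.0143, exact) and the lineage difference 0.95 (adjusted p = 0.0208, exact). Log2(Pgam1/Pgam2) fell by 2.03 per day in Isl1Cre (exact p = 0.00476, adjusted p = 0.0143) and its slope in Nkx2-5Cre was -0.73 (exact p = 0.187, adjusted p = 0.240). Pgam2 held 2.90% and 3.01% of mutase CPM in Isl1Cre E7.75, 10.2% and 10.8% at E8.25, 19.1% and 19.4% at E8.75 and 15.8% at E9.25. In Nkx2-5Cre it held 5.96% and 7.70%, 24.6% and 17.4%, 17.5% and 23.2%, and 15.9% and 13.5%. Averaged over stages the ratio was 0.59 higher in Isl1Cre (exact p = 0.0324, adjusted p = 0.0486), a call lost in 12 of 15 omissions of 1 library. Among cardiomyocyte-like cells, described further on, log2(Eno1/Eno3) was 0.63 higher in Isl1Cre and log2(Pgam1/Pgam2) 0.24 higher. None of the 9 tests passed there, where the Isl1Cre slopes have 30 arrangements and an exact p no lower than 0.0333. The Eno1/Eno3 lineage difference (exact p = 0.00926, 108 arrangements) was also at its lowest possible p. So was the Nkx2-5Cre slope of log2(Ldha/Ldhb) (exact p = 0.0222, 90 arrangements). With so few arrangements, the lack of a call there decides little.

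**Figure D3:**
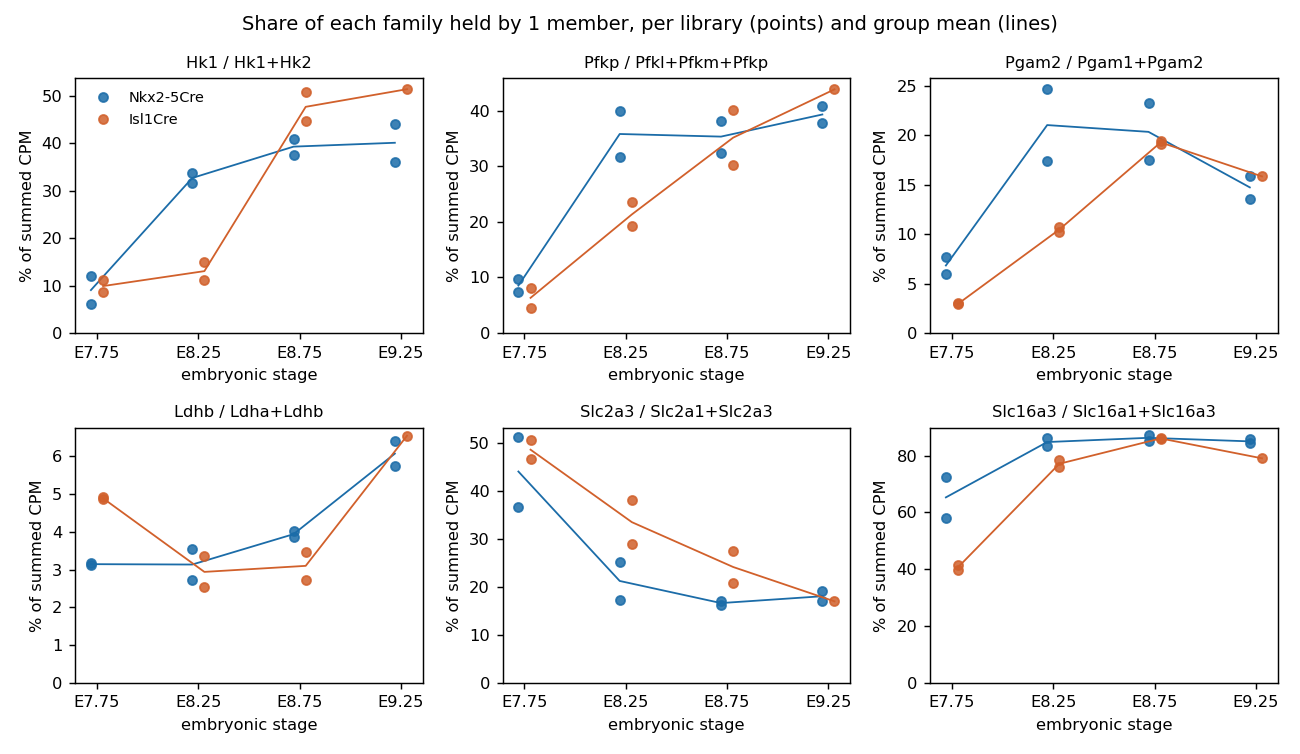
Percent of a family's summed CPM held by 1 member (vertical axis from 0) in each library (points) with group means (lines), by stage. Hk1, Pfkp and Slc16a3 gained share in both lineages, Slc2a3 lost it, and the Ldhb share was highest at E9.25.

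Lactate dehydrogenase shifted late. Ldha (chr7:46841475-46855627), the subunit that favours lactate formation, was at 2460.2 and 2524.9, 3545.0 and 3497.4, 3563.0 and 3499.9, and 3786.2 and 3566.4 CPM in Nkx2-5Cre, against 2246.9 and 2473.1, 2725.0 and 2720.2, 3433.9 and 3729.0, and 3289.3 CPM in Isl1Cre. Ldhb (chr6:142490249-142507957), the subunit common in adult heart, was at 80.6 and 81.2, 130.4 and 97.8, 149.2 and 140.7, and 258.7 and 217.6 CPM in Nkx2-5Cre, against 116.4 and 126.2, 70.7 and 94.2, 96.4 and 134.1, and 230.5 CPM in Isl1Cre. Both lineages had their highest Ldhb at E9.25, above all their earlier libraries. Ldha rose by 0.34 ± 0.06 per day (adjusted p = 0.00033) and by 0.40 ± 0.07 (adjusted p = 0.000373), with the E7.75 libraries lowest in both lineages. Ldhb slopes were 1.00 ± 0.13 (adjusted p = 1.5e-05) and 0.68 ± 0.15 (adjusted p = 0.00295). The Isl1Cre value rests on the single E9.25 library, without which it was -0.13. In Nkx2-5Cre, log2(Ldha/Ldhb) fell by 0.66 per day (exact p = 0.00635, adjusted p = 0.0143), where the Ldhb share of the pair was 3.12% and 3.17% at E7.75 and 5.75% and 6.40% at E9.25. In Isl1Cre its slope was -0.06 (exact p = 0.879, adjusted p = 0.879), with shares of 4.86% and 4.92%, 2.53% and 3.35%, 2.73% and 3.47%, and 6.55%. The Isl1Cre slope was -1.06 without E7.75 (exact permutation, adjusted p = 0.2), and in cardiomyocyte-like cells it was -1.26, beside -0.98 in Nkx2-5Cre (exact permutation, adjusted p = 0.1 for each).

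Genes that route pyruvate and lactate rose with one exception. Pdk1 (chr2:71873224-71903858), a kinase that blocks pyruvate dehydrogenase, was at 26.5 and 15.1, 46.2 and 58.8, 78.3 and 60.8, and 95.5 and 95.3 CPM in Nkx2-5Cre, against 7.73 and 14.5, 37.6 and 40.9, 45.8 and 60.1, and 67.7 CPM in Isl1Cre. Pdk3 (chrX:93764607-93832201), a kinase of the same family, was at 52.5 and 55.6, 94.7 and 76.1, 99.4 and 96.7, and 92.2 and 67.0 CPM in Nkx2-5Cre, against 33.1 and 42.8, 56.9 and 53.4, 84.3 and 83.7, and 86.3 CPM in Isl1Cre. Pdk1 rose in both lineages (1.40 ± 0.18 and 1.65 ± 0.22, adjusted p = 2.12e-05 and 1.91e-05) and Pdk3 rose in Isl1Cre (0.85 ± 0.16, adjusted p = 0.000585), while the difference of its slopes did not pass ( 0.49 ± 0.21, adjusted p = 0.235). Slc16a3 (chr11:120948480-120960868), the lactate exporter MCT4, was at 248.9 and 203.8, 420.4 and 414.4, 441.4 and 469.6, and 463.7 and 347.3 CPM in Nkx2-5Cre, against 121.5 and 119.7, 392.2 and 362.2, 422.3 and 505.9, and 344.1 CPM in Isl1Cre, with slopes of 0.52 ± 0.09 and 0.99 ± 0.11 (adjusted p = 0.000515 and 3.3e-06). The E7.75 libraries were lowest for each of these 3 genes in Isl1Cre, and without E7.75 the Slc16a3 slopes were -0.06 and -0.03. Slc16a1, the transporter MCT1, fell in Isl1Cre (-0.65 ± 0.20, adjusted p = 0.0235) from 183.4 and 168.8 CPM to 91.4 CPM.

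Of the 9 genes of oxygen sensing and hypoxia targets, the mitophagy gene Bnip3 had the steepest slopes. Bnip3 (chr7:138890836-138909519) was at 207.3 and 189.4, 459.3 and 400.0, 491.0 and 466.0, and 621.4 and 625.4 CPM in Nkx2-5Cre, against 78.7 and 111.6, 363.4 and 362.8, 372.2 and 418.7, and 380.5 CPM in Isl1Cre. Isl1Cre lay below Nkx2-5Cre at every stage, and the slopes were 1.02 ± 0.09 and 1.26 ± 0.11 (adjusted p = 4.08e-07 and 1.53e-07). Hif1a (chr12:73901375-73947530), the oxygen-regulated factor itself, was at 133.3 and 122.0, 133.7 and 166.7, 182.2 and 148.8, and 152.5 and 178.8 CPM in Nkx2-5Cre, against 86.4 and 104.6, 137.8 and 121.5, 149.4 and 149.1, and 179.8 CPM in Isl1Cre, and rose in Isl1Cre (0.62 ± 0.13, adjusted p = 0.00144). Its RNA does not show the protein, which oxygen controls. Of the prolyl hydroxylases that mark it, Egln1 rose in Isl1Cre (1.00 ± 0.25, adjusted p = 0.00641) and Egln3 fell there (-1.18 ± 0.38, adjusted p = 0.0288), at 7.73 to 54.6 and 2.11 to 13.3 CPM. Bnip3l rose in both lineages and Ero1l, an oxidase of protein folding, in Nkx2-5Cre. Vegfa, Ankrd37 and P4ha1 passed the threshold in neither slope, at 10.6 to 33.5, 3.34 to 22.7 and 37.7 to 88.1 CPM.

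The letters before the start sites are shown for 4 members, the muscle isozymes Pgam2 and Eno3 and the genes Bnip3 and Pdk1. They were picked by hand from the 17 that rose in both lineages. RefSeq windows (GRCm38.p6) matched 32 of the 35 members. Each window is the 250 bases before the start, on the gene's strand, and capitals mark ACGTG or GCGTG, the core letters that hypoxia-inducible factor is known to bind, on either strand.
Pgam2, chr11:5803797-5804046, minus strand: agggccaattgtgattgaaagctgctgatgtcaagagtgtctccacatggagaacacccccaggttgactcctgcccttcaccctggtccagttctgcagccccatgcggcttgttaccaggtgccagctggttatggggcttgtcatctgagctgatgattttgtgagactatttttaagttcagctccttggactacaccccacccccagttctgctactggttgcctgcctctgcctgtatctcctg
Eno3, chr11:70656926-70657175, plus strand: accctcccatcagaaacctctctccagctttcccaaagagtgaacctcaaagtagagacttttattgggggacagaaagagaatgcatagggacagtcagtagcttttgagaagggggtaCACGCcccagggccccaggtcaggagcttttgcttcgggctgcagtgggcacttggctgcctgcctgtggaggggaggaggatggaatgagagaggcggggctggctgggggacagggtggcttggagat
Bnip3, chr7:138909507-138909756, minus strand: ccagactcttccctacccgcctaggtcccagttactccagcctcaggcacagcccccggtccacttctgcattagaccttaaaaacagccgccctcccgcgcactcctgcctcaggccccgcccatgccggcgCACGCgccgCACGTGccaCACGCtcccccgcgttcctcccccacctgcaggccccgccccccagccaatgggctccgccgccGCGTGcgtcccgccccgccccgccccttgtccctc
Pdk1, chr2:71872974-71873223, plus strand: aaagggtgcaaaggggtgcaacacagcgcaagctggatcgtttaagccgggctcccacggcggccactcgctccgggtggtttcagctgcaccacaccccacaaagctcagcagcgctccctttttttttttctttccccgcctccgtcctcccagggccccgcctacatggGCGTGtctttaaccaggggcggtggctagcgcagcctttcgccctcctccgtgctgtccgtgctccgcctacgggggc
The Bnip3 window held 2 matches to ACGTG and 3 to GCGTG, some of them overlapping, Eno3 and Pdk1 held 1 match to GCGTG each, and Pgam2 held none. Pdk1 has a further window, chr2:71874654-71874903, which is not shown and held no match. Over all members, 22 of 46 windows (47.8%) held ACGTG and 25 (54.3%) held GCGTG, against 16.6% and 28.2% of all 32851 windows. Some windows of 1 gene overlap and share a match, as for Aldoa, Eno1 and Pfkm. By gene, 19 and 21 of the 32 members held a match, and shares by gene over all genes are not given here. Member windows also had a higher median GC content, 61.0% against 52.4%, and its part in these shares was not tested. A match is a run of letters and not a bound site.

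The Isl1Cre libraries had lower levels of some members at E7.75 and E8.25. Averaged over the 4 stages, 8 of 33 were lower in Isl1Cre (Hk2, Gpi1, Aldoa, Pgam2, Eno3, Slc16a3, Egln1 and Bnip3) and none was higher, beside 3.68% of all genes lower and 3.68% higher. The median member difference was -0.25. At E7.75, 10 were lower and none higher (3.8% and 3.33% of all genes), and at E8.25, 5 were lower and none higher (2.61% and 2.5%). Pgam2 and Eno3 were lower at both stages. At E8.75 and E9.25 no member passed the threshold in limma, edgeR or DESeq2, and 3 were lower at an unadjusted p under 0.05 at each stage with limma. All genes were then also rarely called, 0.0938% lower and 0.225% higher at E8.75 and 0.553% and 0.422% at E9.25.

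Among the members called, the largest E7.75 differences were in Pgam2 (-1.35 ± 0.22, adjusted p = 0.000832), Egln1 (-1.32 ± 0.33, adjusted p = 0.0169), Eno3 (-1.30 ± 0.13, adjusted p = 4.49e-06), Bnip3 (-1.03 ± 0.15, adjusted p = 0.000234) and Hk2 (-0.96 ± 0.20, adjusted p = 0.0063). At E8.25 they were in Hk1 (-1.66 ± 0.33, adjusted p = 0.00624), Pgam2 (-1.30 ± 0.22, adjusted p = 0.00227), Pfkp (-0.89 ± 0.23, adjusted p = 0.0299) and Eno3 (-0.86 ± 0.13, adjusted p = 0.000911). Ldha was lower by a smaller amount at E8.25 (-0.40 ± 0.09, adjusted p = 0.0151). Without E7.75 the average difference was called for Bnip3 (-0.39) and Eno3 (-0.50), and with 1 unit per group for no member (2 lower at an unadjusted p under 0.05 with limma). Of all genes, 2.5% and 0.00994% were called in these 2 fits. The E8.25 count was 2 or 3 when Nkx2-5Cre E8.25 library 1 or either Isl1Cre E8.25 library was left out. The share of all genes called in those omissions is not given here.

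**Figure D4:**
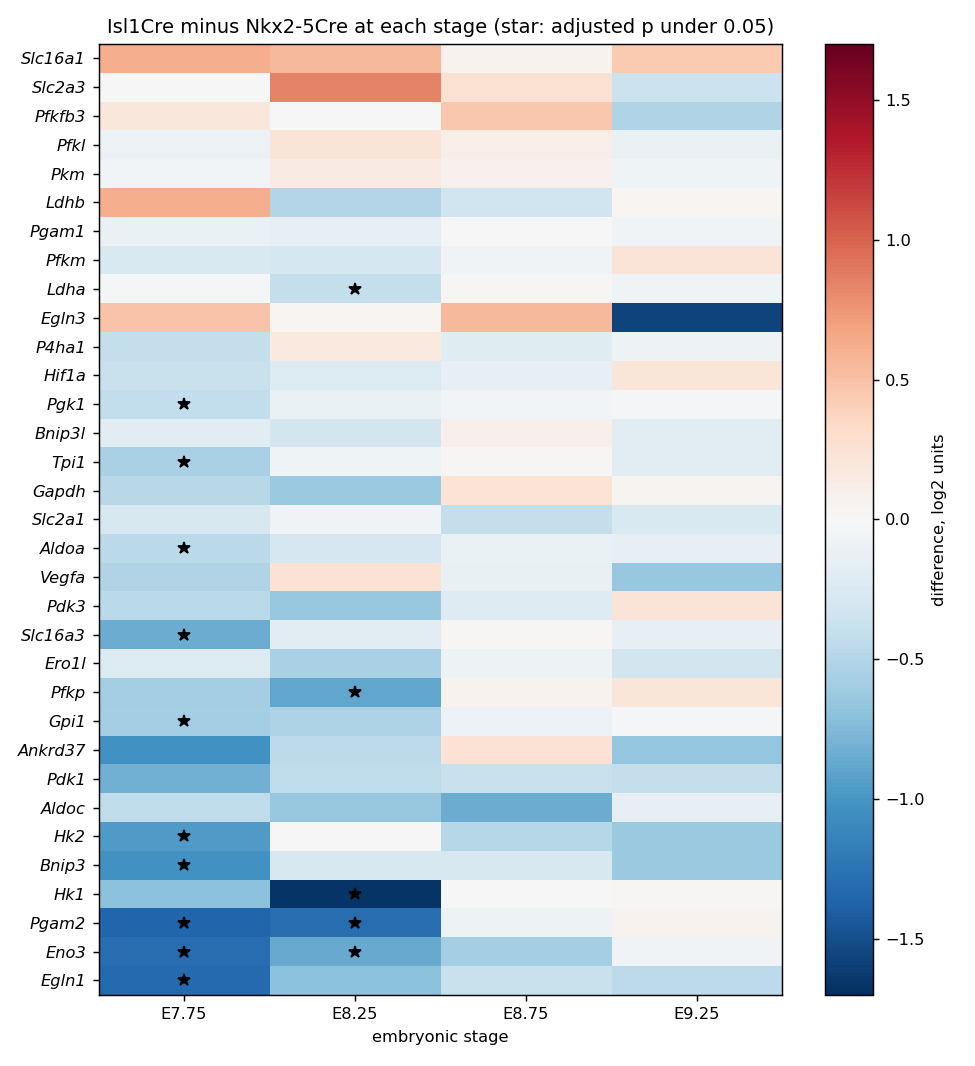
Isl1Cre minus Nkx2-5Cre (colour, log2 units; blue lower in Isl1Cre) for the 33 tested members at each stage, with stars at an adjusted p under 0.05. Stars stand at E7.75 (10) and E8.25 (5), and none at the later stages.

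The slopes themselves differed for the muscle isozymes. The Isl1Cre slope was steeper for Pgam2, by 1.09 ± 0.22 per day (adjusted p = 0.00927), and for Eno3, by 0.80 ± 0.13 (adjusted p = 0.00151). No member had a significantly less steep slope, and 1.88% and 0.694% of all genes were called in the 2 directions. The Pgam2 call was lost without a filter on low values (adjusted p = 0.0845), in edgeR (adjusted p = 0.054) and without Nkx2-5Cre E9.25 library 2 (adjusted p = 0.0513), where that of Eno3 was kept. Without the single Isl1Cre E9.25 library, when the Isl1Cre slope ends at E8.75 and the Nkx2-5Cre slope still runs to E9.25, 11 members were called steeper and 1, Ldhb, less steep. These included Eno3 (1.44), Pgam2 (2.33), Pfkp (1.52), Hk1 (1.57), Slc16a3 (1.38) and Bnip3 (1.02). The share of all genes called without that library is not given here. Without E7.75 the only call was Hk1 (1.68), and 2.03% of all genes were called in that fit.

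The makeup of the cells also changed with stage. Clusters were built without the 35 genes, and no cell of E7.75 fell in a cluster named cardiomyocyte-like. Of the kept cells, 78.5% and 84.0% did so in Nkx2-5Cre E8.25 and 51.6% in each Isl1Cre E8.25 library. The cluster with the most of these cells differed between groups: cluster 1 in Nkx2-5Cre E8.25 (58 of 152 cells) and Isl1Cre E9.25 (56 of 83), cluster 6 in Nkx2-5Cre E8.75 (51 of 162), cluster 2 in Nkx2-5Cre E9.25 (72 of 143) and Isl1Cre E8.75 (46 of 110), and cluster 5 in Isl1Cre E8.25 (31 of 96). A cluster of 71 cells with cardiomyocyte markers stayed unnamed for its low depth. Another unnamed cluster, of 33 cells, held 31 cells of Isl1Cre E8.25 and 2 of Nkx2-5Cre E8.25. Its cells were not shallow, with a median depth of 1.568 times the library median. The cardiomyocyte marker Tnnt2 averaged 787.9 CPM there, against 5052.8 to 7144.7 CPM in the cardiomyocyte-like clusters. Unnamed clusters together held 28.0% and 22.6% of Isl1Cre E8.25 cells, against 4.3% and 6.5% in Nkx2-5Cre E8.25. Their part in the E8.25 lineage differences was not tested. Endoderm-like cells made up 5.4% and 9.7% of Isl1Cre E8.25 and 0.0% of Nkx2-5Cre E8.25. Within the cardiomyocyte-like cells, in 11 libraries of E8.25 to E9.25, 4 of 33 members rose per day and none fell, beside 1.63% and 0.844% of all genes tested. They were Ldhb (1.24 ± 0.165, adjusted p = 0.000509), Hk1 (1.06 ± 0.235, adjusted p = 0.0218), Pdk1 (0.68 ± 0.17, adjusted p = 0.0403) and Vegfa (0.99 ± 0.26, adjusted p = 0.0478). Ldhb alone kept its call in all 11 omissions of 1 library, and the count fell to 1 without Isl1Cre E8.25 library 1 or Isl1Cre E9.25 and to 2 without Isl1Cre E8.25 library 2, Nkx2-5Cre E8.75 library 1 or either Nkx2-5Cre E9.25 library. Shares of all genes called in these omissions are not given here. Between lineages in cardiomyocyte-like cells, 1 member was called, Eno3, lower in Isl1Cre by -0.46 ± 0.09 (adjusted p = 0.0125), beside 0.344% of genes lower and 0.707% higher.

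Endothelial-like cells of the same libraries held less of nearly all members. In the 3 libraries with at least 10 cells of both kinds, 31, 32 and 30 of the 35 members had a higher mean CPM in cardiomyocyte-like cells, with a median log2 ratio of 1.22, 1.22 and 1.23. The same comparison over all genes was not made. Median counts per cell were 129318 against 95969 in Nkx2-5Cre E8.25 library 2, 120446 against 94455 in E9.25 library 1 and 124795 against 169282 in E9.25 library 2. The part of depth in these ratios was not tested. Eno3 was at 654.3, 670.2 and 700.7 CPM in cardiomyocyte-like and at 23.5, 114.2 and 30.95 CPM in endothelial-like cells. Slc2a1 was at 443.1, 628.5 and 701.7 against 129.4, 152.6 and 140.7 CPM. Pkm differed less, at 2359.0, 2549.5 and 2229.8 against 1933.9, 1800.6 and 1525.0 CPM. Pfkfb3 was lower in cardiomyocyte-like cells in each of the 3 libraries, at 2.18, 6.65 and 9.38 against 4.70, 18.1 and 17.7 CPM. These are 11, 14 and 18 endothelial-like cells, given as a description with no test.

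The per-cell score, the mean log2(CPM + 1) over the 35 genes, followed the same course. Since deeper cells detect more genes, cells were thinned to 10000 counts. The thinned mean was 4.72 and 4.46 in Nkx2-5Cre E7.75, 5.32 and 5.22 at E8.25, 5.40 and 5.24 at E8.75 and 5.62 and 5.31 at E9.25. In Isl1Cre it was 3.85 and 3.89, 4.94 and 4.96, 5.10 and 5.24, and 5.29. The E7.75 libraries were lowest in each lineage. Isl1Cre lay below Nkx2-5Cre at E7.75, E8.25 and, with its 1 library, E9.25, and the lineages overlapped at E8.75. The SD over cells of a library was 0.496 to 0.997. Before thinning the E7.75 means were 5.86 and 5.47 against 4.66 and 4.77, at median counts of 360929 and 203581 against 105339 and 127704. Among cardiomyocyte-like cells, thinned means ranged from 5.28 to 5.90 over the 11 libraries. In these cells Isl1Cre was at 5.28 and 5.31 against 5.52 and 5.50 in Nkx2-5Cre at E8.25. At E8.75 the values were 5.32 and 5.49 against 5.58 and 5.30, and at E9.25 5.33 against 5.90 and 5.72. Endothelial-like cells of the 3 libraries above were at 3.72, 4.21 and 3.63.

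**Figure D5:**
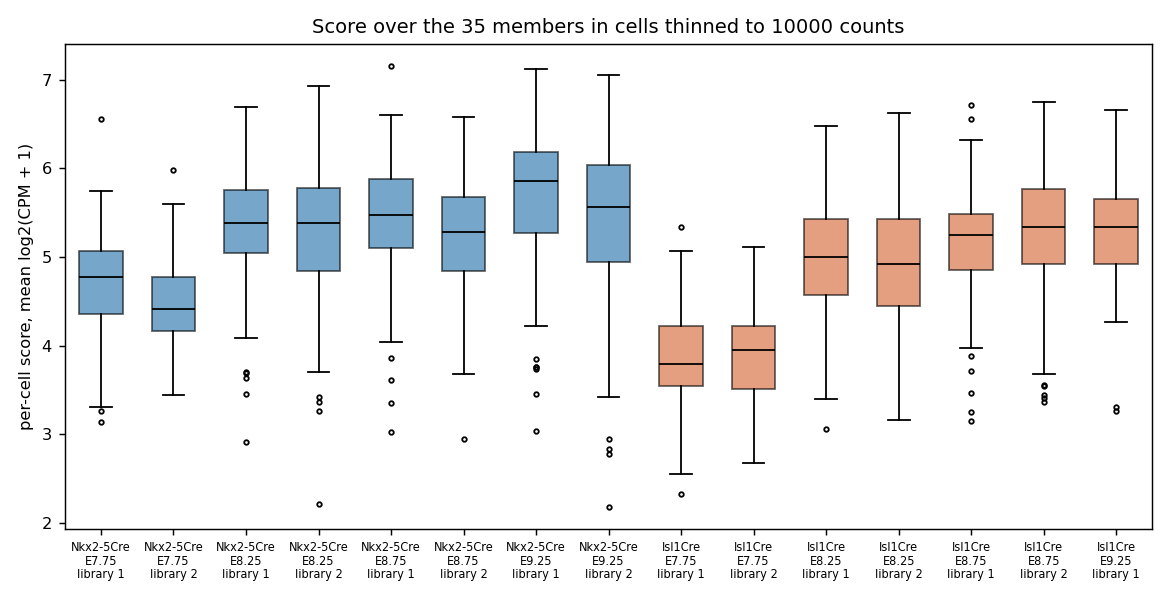
Per-cell score (vertical axis, mean log2(CPM + 1) over 35 genes after thinning to 10000 counts) in each of the 15 libraries, as boxes over cells (line: median; whiskers: 1.5 times the box height; points beyond). The 2 Isl1Cre E7.75 libraries are lowest, followed by those of Nkx2-5Cre E7.75.

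Other genes of these pathways were counted in 4 lists, to be read beside the shares of all genes, 13.2% rising and 11.6% falling in Nkx2-5Cre and 13% and 10.2% in Isl1Cre. Of 23 tested genes of glycogen and the side branches of glycolysis, 7 rose and none fell in Nkx2-5Cre, and 7 rose and 2 fell in Isl1Cre. Pygm, muscle glycogen phosphorylase, rose by 1.98 ± 0.24 and 3.09 ± 0.29 per day, and Pgm2, Pygl and Bsg (basigin, the partner of lactate transporters) also rose in both. Of 17 tested genes of pyruvate entry into mitochondria and of linked malate and aspartate enzymes, 7 rose and none fell in Nkx2-5Cre. In Isl1Cre, 6 rose and 1 fell. Those that rose included Mpc2, a subunit of the mitochondrial pyruvate carrier (0.87 and 1.15). The aspartate and malate enzymes Got1 (1.00 and 1.01) and Mdh1 (0.37 and 0.67) also rose in both. Of 8 tested pentose phosphate genes, none rose and 2 fell in Nkx2-5Cre and 3 fell in Isl1Cre, led by Tkt, transketolase (-1.005 ± 0.12 and -1.24 ± 0.14, adjusted p = 6.18e-06 and 2.96e-06). Of 32 further genes of oxygen sensing and response, 8 rose and 2 fell in Nkx2-5Cre and 7 rose and 2 fell in Isl1Cre. Fam162a rose (0.64 and 0.86), while Loxl2, a lysyl oxidase, fell (-0.60 and -0.73). Between lineages, 1, 0, 1 and 1 genes of the 4 lists were higher and 3, 3, 1 and 2 lower in Isl1Cre, beside 3.68% of all genes in each direction.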

How the data were processed

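Single-cell RNA was measured in 15 libraries of mouse heart cells with Smart-seq2 modified for molecular barcodes and capture of 3′ fragments, per the labels' protocols. The authors deposited CPM per gene and cell. Per the submitters' processing notes, CASAVA 1.8, TopHat2 2.0.12, HTSeq and mm10 were used. Whole counts were recovered from the CPM steps: 100% of low values lay within 0.1 counts of a whole number. Cells with at least 2000 counts and 1000 genes were kept. Left out of every step were 2 shallow cells whose CPM were all whole numbers.

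Library means were scaled by TMM and tested with limma 3.58.1 in R 4.3.3 on log2(CPM + 1), with 1 mean per group. Contrasts were Isl1Cre minus Nkx2-5Cre at each stage and averaged, each lineage's slope over embryonic days, and how those slopes differ. On the recovered counts summed per library, edgeR 4.0.16 and DESeq2 1.42.0 ran as alternatives. edgeR called 677 genes for the average lineage difference, 2558 for the Nkx2-5Cre slope and 2316 for the Isl1Cre slope. The others were another pseudocount, filter, scaling, thinning and clustering, a replicate block, and the omission of a library or of E7.75. The code was tested on simulated data.

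Cells were clustered (Leiden, resolution 1.0) without the 35 genes. By a rule chosen after seeing the data, a cluster was named where at least 1 marker was among its top 10 genes by fold, at least 3 markers and no less than 50% of the list were 2-fold higher, and its depth was not far below that of its libraries. No doublet caller was run. The members and lists were chosen with earlier results of these data known. Values in every library are given for the 6 isozyme genes and for up to 16 members past the threshold in the average lineage difference, a slope or the slope difference, by lowest adjusted p.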

Additional observations from a re-analysis of the deposited data

Results flagged for a closer look

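The slopes of Pgam2 and Eno3 differed between the Cre lineages by the test of the difference itself. Isl1Cre minus Nkx2-5Cre was 1.09 log2 units per day for Pgam2 and 0.80 for Eno3 (limma adjusted p = 0.00927 and 0.00151). For Pgam2 the lineages overlapped at E8.75 and E9.25, and Isl1Cre was lower at E7.75 and E8.25 with no overlap. For Eno3, each Isl1Cre library lay below each Nkx2-5Cre library at every stage. Its lineage difference was -0.58 at E8.75 and -0.05 at E9.25, the latter with 1 Isl1Cre library, and neither passed the threshold. The summed cardiomyocyte markers were lower in Isl1Cre from E7.75 to E8.75 and higher at E9.25, and their part in the difference was not tested. Neither call held without E7.75 (1.36 for Pgam2 and 0.80 for Eno3, adjusted p = 0.0612 and 0.059) or with 1 unit per group (1.07 and 0.77, adjusted p = 0.886 and 0.863). That of Pgam2 was also lost without a filter, in edgeR and without Nkx2-5Cre E9.25 library 2, where that of Eno3 was kept.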

How the results depend on the processing

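Of the 33 tested members, the average lineage difference called 8, and 4 without a filter on low values, 3 with cells thinned to 5000 counts, 0 with 1 unit per group and 2 without E7.75. At E7.75 the 10 calls became 5 without a filter and 6 thinned. At E8.25 the 5 became 2 without a filter, 3 thinned, 8 in edgeR and 11 in DESeq2 (1 of them higher in each). Of all genes, edgeR called 5.68% and DESeq2 9.01% at E8.25. Slopes called 21 in Nkx2-5Cre (0 with 1 unit per group, 1 without E7.75) and 23 in Isl1Cre (6 and 6). The slope difference called 2, and 1 without a filter, 1 in edgeR, 0 with 1 unit and 1 without E7.75. Of all genes, it called 2.32% in edgeR, 0.0% with 1 unit and 2.03% without E7.75. Leaving out 1 library gave 5 to 11 for the average difference, 6 to 11 at E7.75, 2 to 6 at E8.25, 0 at E8.75 and E9.25, 18 to 23 and 20 to 24 for the slopes, 1 to 12 for the slope difference, and 1 to 5 for the cardiomyocyte-like slope. The average fell to 5 without Nkx2-5Cre E8.25 library 1, Nkx2-5Cre E9.25 library 1, Isl1Cre E8.25 library 2 or Isl1Cre E8.75 library 1, and E7.75 to 6 without Nkx2-5Cre library 2 or Isl1Cre library 1. The slope difference was 1 without Nkx2-5Cre E9.25 library 2 and 12 without the Isl1Cre E9.25 library, where the slopes cover unlike stages. Shares of all genes called without a filter, thinned, with 1 library left out or with the replicate block are not given here. Changes of those counts therefore cannot be set apart from changes over all genes. With the replicate block the counts were 9, 10, 5, 0, 0, 22, 23 and 2, in the order given, and no count moved by over 1.5 times. Equal library numbers did not pair the samples (21 pairs of groups, correlation -0.031 to 0.166). Without E7.75 the slopes of Aldoa (-0.05), Gpi1 (-0.14), Pgam2 (-0.60) and Slc16a3 (-0.06) turned in Nkx2-5Cre, and those of Hk2 (-0.52) and Slc16a3 (-0.03) in Isl1Cre. Without the Isl1Cre E9.25 library the Isl1Cre slope of Ldhb was -0.13, and it was up to 0.72 in the other omissions. For the isozyme ratios, in the order Nkx2-5Cre slope, Isl1Cre slope and lineage, cardiomyocyte-like cells gave -0.23, -0.22 and 0.63 for Eno1/Eno3, 0.59, -0.48 and 0.24 for Pgam1/Pgam2, and -0.98, -1.26 and 0.18 for Ldha/Ldhb. Without E7.75, added after seeing the data, they were -0.17, -0.60 and 0.69, then 0.61, -0.88 and 0.37, then -1.0, -1.06 and 0.11. All cells gave 0.04 for the Isl1Cre slope of Ldha/Ldhb, and Eno1b added to Eno1 gave -0.34 for Nkx2-5Cre. Omitting 1 library gave -1.13 to -0.74, -2.01 to -1.37 and 0.75 to 1.0 for Eno1/Eno3, -1.04 to -0.33, -2.94 to -1.77 and 0.51 to 0.83 for Pgam1/Pgam2, and -0.74 to -0.55, -0.28 to 0.69 and -0.13 to -0.03 for Ldha/Ldhb. Fewer samples enter the fits without E7.75 and with 1 unit per group. The fit with 1 unit per group also draws a straight line per lineage through the 8 group means. Its error comes from departure from those lines, not from the spread between libraries. The part of each in the lost calls was not tested. For the other changes the cause was not tested. With 1 embryo number per group, the spread between embryos is unknown.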
